A study of Mus musculus with 19 samples.

Results

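The 10 genes followed here encode subunits of the Polycomb repressive complexes and were chosen by name, as Ezh1, Ezh2, Suz12, Eed, Jarid2, Mtf2, Phf19, Rnf2, Pcgf6 and Cbx7. This choice was made with earlier results of these data known, so counts of members beside all tested genes are a description. The members are 10 of the 54119 genes in the summed table and 10 of the 14972 genes that were tested, so each of them passed the filter on low values. RNA was sequenced in 19 libraries of mouse embryonic stem cells (mESC) and of epiblast-like cells (EpiLC), which model the epiblast after implantation. The study asked whether TET3, an enzyme that oxidises methylated cytosine in DNA, is needed for the passage from mESC to EpiLC.

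The XX libraries are wildtype LF2 cells, with 3 mESC and 3 EpiLC libraries. The XY libraries are wildtype E14 cells, also 3 in each state, so sex and cell line cannot be told apart. The Tet3-/- libraries are XX cells of the LF2 line, with 4 mESC libraries from mutants numbered 1 to 4 and 3 EpiLC libraries from mutants 1, 3 and 4. The labels do not say whether these mutants are separate clones, nor whether the other libraries came from separate cultures, and p-values measure only the spread between these samples. All mESC were grown with LIF and with inhibitors of the kinases GSK3 and MEK, and all EpiLC were made from such cells in medium that held FGF5 and Activin A but no LIF, over 5 days. The EpiLC libraries carry the word epiblast in their titles.

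Polycomb repressive complex 2 (PRC2) methylates lysine 27 of histone H3 through EZH2 or EZH1, which need SUZ12 and EED to work. JARID2 joins a form of the complex that the PCL proteins MTF2 and PHF19 do not join, and these bring their own form to CpG islands. Polycomb repressive complex 1 (PRC1) ubiquitinates histone H2A through RNF2 or RING1. CBX7 marks the canonical form, which reads the methyl mark of PRC2, and PCGF6 marks a variant form that represses germline genes in embryonic stem cells. In these cells the complexes hold developmental genes silent.

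Values are scaled TPM, which is the deposited transcript abundance summed per gene and divided by 1 factor per library. This gives the typical tested gene the same level in all libraries. The factors ran from 0.5947 to 1.704. A single small cytoplasmic RNA, Rn7s1, held from 23.6% to 43.8% of the deposited TPM, and libraries with 33.4% each had factors of 0.7336 and 1.332. Log2 fold changes are on the scale of log2(scaled TPM + 1), which understates the change of low genes such as Phf19, and a gene was called at an adjusted p under 0.05 in limma. The median tested gene of the deposited scale shifted between states by a log2 value of 0.14 for XX, 0.54 for XY and -0.13 for Tet3-/- cells. Between Tet3-/- and XX the shift was 0.19 in mESC and -0.07 in EpiLC, and between XX and XY it was -0.19 and -0.58. With the scaled values these medians lay between -0.02 and 0.01. TPM holds no depth, so the depth of the libraries is unknown.

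The naive markers followed the labelled states in all 3 genotypes, and the formative markers did so in part. The summed scaled TPM of 7 naive genes was 410 to 594 in mESC and 35.7 to 90.3 in EpiLC, and all 7 fell in each genotype. The sum of 5 formative genes was 15.7 to 32.5 in mESC, 44.1 to 46 in XX EpiLC, 56.7 to 113 in Tet3-/- EpiLC and 188 to 193 in XY EpiLC. Of these 5 genes 3 rose and 1 fell in XX cells, 4 rose in XY cells and 3 rose in Tet3-/- cells. Otx2 was the gene that fell in XX (-0.92, limma adjusted p 0.000212), and it had 3.95 in XY (limma adjusted p 1.24e-11) and -0.12 in Tet3-/- cells (limma adjusted p 0.547). Tet3 itself had 0.656 to 1.24 scaled TPM in XX mESC and 0.522 to 0.847 in Tet3-/- mESC, which overlap, and 1.41 to 1.92 against 1.06 to 1.32 in EpiLC, which do not. The labels do not give the deleted part of Tet3, so its gene level does not check them. A pair of libraries stood apart from their groups. XX mESC library 2 correlated at 0.948 to 0.949 with the others of its group and had a summed level of 10 cell cycle genes of 1030, against 540 and 553. Tet3-/- EpiLC library 3 correlated at 0.948 to 0.953 and had a summed level of 4 mesendoderm genes of 97.6, against 4.07 and 4.97. Markers of primitive endoderm summed to at most 10.1 and those of feeder fibroblasts to at most 7.15. In these bulk libraries fewer cells of a type and less RNA per cell cannot be told apart.

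**Figure D1:**
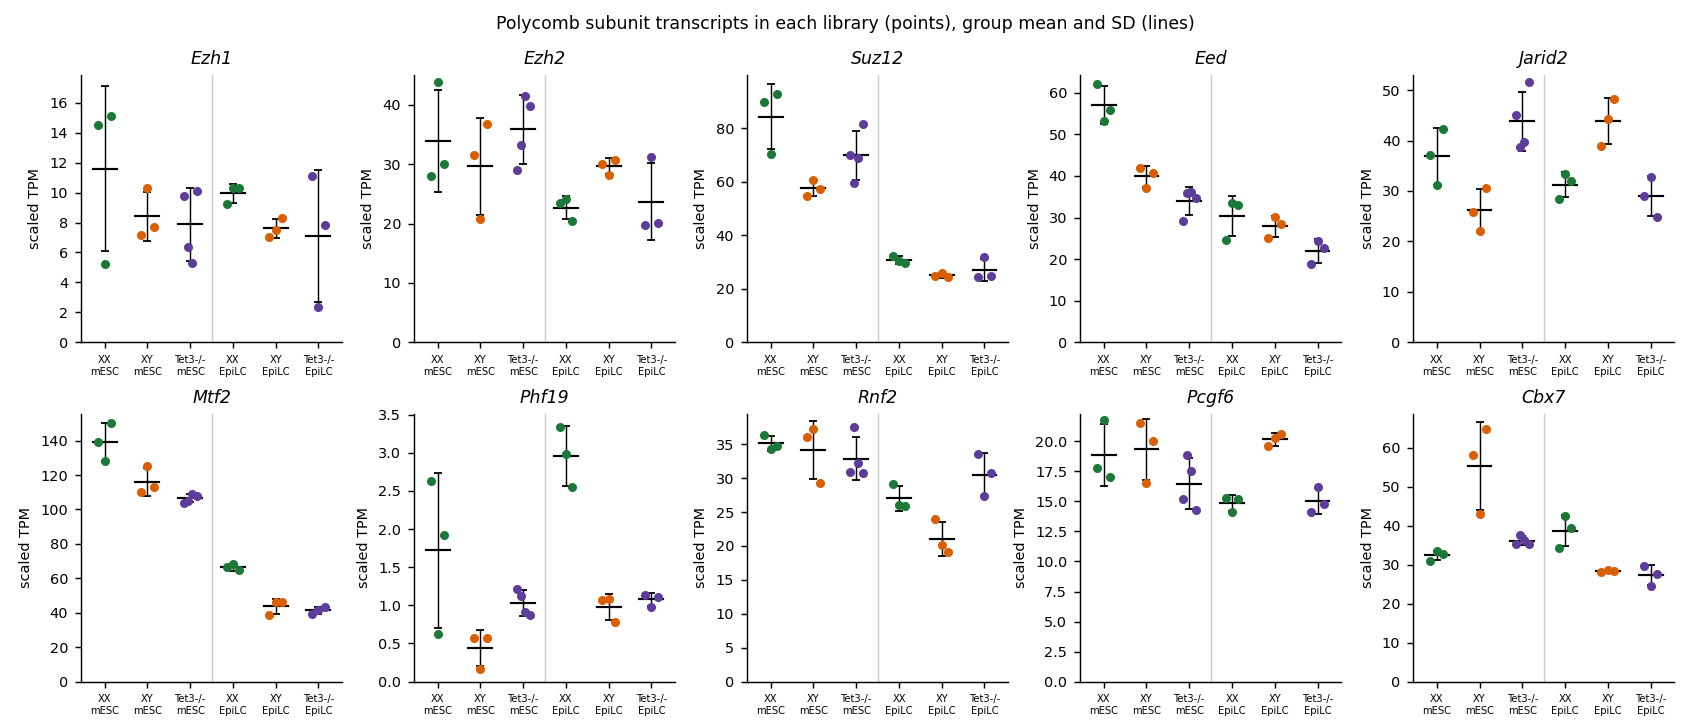
Scaled TPM (vertical axis, from 0, with its own range in each panel) of the 10 Polycomb subunit genes in each library (points), by group, with group means and SD (lines). Suz12, Eed and Mtf2 sit lower in EpiLC than in mESC in all 3 genotypes, and XX mESC library 2 is the low point for Ezh1 and Phf19 in its group.

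From mESC to EpiLC the RNAs of Suz12, Eed and Mtf2 fell in all 3 genotypes. No other member was called in the same direction in all 3, and Ezh1 was called in none. A call in some genotypes only does not show a difference between them, which was tested as an interaction below. In XX cells 7 of the 10 members were called, 6 lower and 1 higher, where 50.4% of all tested genes were called. Without XX mESC library 2 or any 1 of the XX EpiLC libraries this count was 4. In XY cells 6 were called, 5 lower and 1 higher, beside 51.4% of all tested genes. In Tet3-/- cells 6 were called, all lower, beside 52.4% of all tested genes and 27.2% called lower. The shares of members called in either direction are thus near the background in each genotype. Of the 14972 tested genes 3874 were called lower in XX and 3742 in XY cells. Whether the members were lower more often than other genes was not tested. The median log2 fold change of the members was -0.34 for XX, -0.31 for XY and -0.49 for Tet3-/- cells, beside -0.02, 0.00 and 0.00 for all tested genes. The splits on the deposited scale were 1 higher and 2 lower in XX, 2 higher and 1 lower in XY, and 0 higher and 2 lower in Tet3-/- cells, with medians of -0.14, 0.33 and -0.66. Shares of all tested genes called on that scale are not given.

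Suz12 (chromosome 11, 79993106 to 80034123, GRCm38) encodes the scaffold of PRC2. It had 89.6, 70.4 and 92.7 scaled TPM in XX mESC and 32.3, 30.2 and 29.6 in XX EpiLC. The XY values were 54.6, 60.6 and 57.2, then 24.6, 26 and 24.4. The Tet3-/- mESC had 70.1, 59.3, 68.7 and 81.6, and their EpiLC 24.4, 31.9 and 24.7. Every EpiLC library lies far below every mESC library, with no overlap in any genotype. The log2 fold change was -1.42 ± 0.13 in XX (SE; limma adjusted p 1.57e-07), -1.17 ± 0.13 in XY (limma adjusted p 1.26e-06) and -1.34 ± 0.12 in Tet3-/- cells (limma adjusted p 1.04e-07). The XX and Tet3-/- calls held under every alternative that was run, and the XY call held under all but the deposited scale, where it was -0.51 (limma adjusted p 0.171).

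Eed (chromosome 7, 89954654 to 89980983) encodes the subunit that binds the methylated histone tail. It had 62.2, 53.3 and 55.9 scaled TPM in XX mESC and 24.7, 33.4 and 33 in XX EpiLC. The XY values were 41.8, 37.1 and 40.7 and then 25, 30.1 and 28.5, and the Tet3-/- values were 29.1, 35.9, 36.2 and 34.7 and then 18.8, 24.3 and 22.7. The states did not overlap in any genotype, but the drop started from a higher level in XX mESC. The log2 fold change was -0.90 ± 0.13 in XX (SE; limma adjusted p 2.67e-05), -0.50 ± 0.13 in XY (limma adjusted p 0.00415) and -0.61 ± 0.12 in Tet3-/- cells (limma adjusted p 0.000494). The XY value was 0.15 on the deposited scale, where the median gene moved by 0.54, and it lost its call with quantile normalization (-0.32, limma adjusted p 0.0746). Over protein-coding transcripts alone it was -0.14 (limma adjusted p 0.645) and scaled to the total of nuclear protein-coding genes it was -0.19 (limma adjusted p 0.489). The XX call was lost on the deposited scale (-0.69, limma adjusted p 0.116), and the Tet3-/- call on that scale (-0.77, limma adjusted p 0.0507) and over protein-coding transcripts alone (-0.48, limma adjusted p 0.085).

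Of the EZH enzymes, Ezh2 was called lower in XX and Tet3-/- cells but not in XY cells, and Ezh1 was called in no genotype. Ezh2 (chromosome 6, 47530139 to 47595341) had 28, 43.8 and 30 scaled TPM in XX mESC and 23.4, 24.2 and 20.5 in XX EpiLC. In Tet3-/- cells it had 29, 33.2, 41.5 and 39.9, then 19.8, 31.2 and 20.1, so that EpiLC library 3 overlaps the mESC range. The XY values overlapped, with 31.5, 20.7 and 36.8 in mESC and 30, 28.2 and 30.8 in EpiLC. The change was -0.53 ± 0.22 in XX (SE; limma adjusted p 0.0495) and -0.60 ± 0.20 in Tet3-/- cells (limma adjusted p 0.0205), and 0.04 ± 0.22 in XY cells (limma adjusted p 0.907). The XX call lies at the threshold and was lost without any XX library except mESC library 1. Without XX mESC library 2, the highest in Ezh2, it was -0.35 (limma adjusted p 0.211). The Tet3-/- call was lost without mESC library 3 or 4 or EpiLC library 1 or 4, with the lowest size -0.49 (limma adjusted p 0.0956). Every scaling but quantile normalization also ended the Tet3-/- call, at -0.76 on the deposited scale (limma adjusted p 0.162) and -0.67 scaled to nuclear protein-coding genes (limma adjusted p 0.0513). All 3 other scalings ended the XX call, and so did no filter, a stricter filter, a fit of only these groups and eBayes without a trend.

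Ezh1 (chromosome 11, 101191115 to 101226463), the second methyltransferase, had lower levels, from 2.36 to 15.1 scaled TPM over all libraries. None of its 3 transitions was called, with values of -0.08 ± 0.40, -0.11 ± 0.40 and -0.27 ± 0.37 (SE) in XX, XY and Tet3-/- cells. The spread is wide because XX mESC library 2 had 5.22 beside 14.5 and 15.1, and Tet3-/- EpiLC library 3 had 2.36 beside 11.1 and 7.86. The Ezh1 share of the summed Ezh1 and Ezh2 TPM ran from 18.2% ± 5.93 (SD, n = 4) in Tet3-/- mESC to 30.5% ± 2.67 (SD, n = 3) in XX EpiLC. It did not pass the exact permutation test between states (difference 2.46 percentage points, adjusted p 0.631).

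Among the accessory subunits Mtf2 (chromosome 5, 108065674 to 108109004) had the highest mean level of the members in every group but XY EpiLC, where Jarid2 reached the same level. It had 139, 128 and 150 scaled TPM in XX mESC and 66.4, 68.6 and 64.6 in XX EpiLC. The XY values were 110, 125 and 113, then 38.6, 46.2 and 46.5. The Tet3-/- values were 104, 105, 109 and 108, then 39.4, 41.8 and 43.5. The groups are tight and far apart, and the EpiLC levels in XY and Tet3-/- cells lie below all 3 XX EpiLC libraries. The change was -1.05 ± 0.09 in XX (SE; limma adjusted p 1.14e-07), -1.39 ± 0.09 in XY (limma adjusted p 3.38e-09) and -1.34 ± 0.09 in Tet3-/- cells (limma adjusted p 2.05e-09). These 3 calls held under every alternative that was run, the deposited scale included.

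Phf19 (chromosome 2, 34893757 to 34914026), the second PCL gene, was expressed at a low level. It had 2.63, 0.622 and 1.92 scaled TPM in XX mESC and 3.34, 2.98 and 2.55 in XX EpiLC, which overlap. In XY cells it had 0.576, 0.162 and 0.567, then 1.07, 1.08 and 0.776, which do not, and in Tet3-/- cells it had 0.878 to 1.22 and then 0.981 to 1.14. Its rise was called in XX cells (0.61 ± 0.21, SE; limma adjusted p 0.0248), but it rested on XX mESC library 2. Without that library it was 0.27 (limma adjusted p 0.144), and the call was also lost without XX EpiLC library 1 or 2. A pseudocount of 0.1 gave 0.94 and no call (limma adjusted p 0.0649), and no filter and a fit of only these groups ended it too. The XY value was 0.47 ± 0.21 (limma adjusted p 0.0767). It was called on the deposited scale (0.79, limma adjusted p 0.00254), with a pseudocount of 0.1 (1.12, limma adjusted p 0.0298), scaled to nuclear protein-coding genes (1.01, limma adjusted p 0.017), in a fit of only these groups (limma adjusted p 0.0326) and with the 2 libraries that stood apart left out (limma adjusted p 0.00732). The Tet3-/- value was 0.04 ± 0.20 (limma adjusted p 0.9).

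Suz12 and Phf19 are shown by their start regions because they are the members whose upstream sequence holds the letters of an E2F site, and they did not move together. The 250 bases before each annotated start were searched on both strands for TTTCCCGC, TTTGGCGC, TTTCGCGC and TTTGCCGC, in RefSeq promoters of GRCm38.p6. One of these words was found in 1.86% of 32851 promoters and in 2 of the 12 promoters of the members. All 10 members had a promoter in this set. The matching letters are in capitals, and the stretches are chr11:79992861-79992920 on the plus strand and chr2:34914151-34914210 on the minus strand, 5′ to 3′:
Suz12: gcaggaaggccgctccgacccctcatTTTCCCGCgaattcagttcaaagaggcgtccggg
Phf19: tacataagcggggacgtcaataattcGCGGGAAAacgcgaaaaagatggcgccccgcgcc
The word is on the gene's strand in Suz12 and on the other strand in Phf19. CACGTG, an E-box, was in 6.02% of all promoters and in none of the members' promoters, and CCAAT was in 33.8% of all promoters and in 5 of the 12 promoters, those of Cbx7, Ezh2, Jarid2, Mtf2 and Suz12. A match describes letters in these windows and not a bound site.

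Jarid2 (chromosome 13, 44729474 to 44921643), which helps to recruit PRC2 and to stimulate it, went in opposite directions. In XY cells it had 25.9, 22 and 30.6 scaled TPM in mESC and 39, 44.3 and 48.2 in EpiLC, so that all EpiLC libraries lie higher. Tet3-/- cells had 45.1, 38.8, 39.8 and 51.6, then 29.1, 32.8 and 24.9, so that all EpiLC libraries lie lower. The XX values overlapped, with 37.2, 31.1 and 42.3 and then 28.5, 33.3 and 32. The change was 0.73 ± 0.15 in XY (SE; limma adjusted p 0.000667), which held under every alternative that was run. It was -0.58 ± 0.14 in Tet3-/- cells (limma adjusted p 0.00223), a call lost on the deposited scale (-0.75, limma adjusted p 0.0856). In XX cells it was -0.22 ± 0.15 (limma adjusted p 0.233), and over protein-coding transcripts alone it was -0.41 and called (limma adjusted p 0.044).

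Among the PRC1 members Rnf2 (chromosome 1, 151458004 to 151500955), the main H2A ubiquitin ligase here by level, had 36.4, 34.3 and 34.8 scaled TPM in XX mESC and 29.1, 26 and 25.9 in XX EpiLC. For XY the values were 36.1, 37.2 and 29.3, then 23.9, 20.1 and 19.1. The states did not overlap in either genotype, while in Tet3-/- cells 30.8 to 37.5 overlapped with 27.3 to 33.6. The change was -0.37 ± 0.12 in XX (SE; limma adjusted p 0.014), -0.67 ± 0.12 in XY (limma adjusted p 0.000137) and -0.10 ± 0.11 in Tet3-/- cells (limma adjusted p 0.46). Neither call was made on the deposited scale (-0.16, limma adjusted p 0.667, and -0.02, limma adjusted p 0.95). The XX call was also lost with quantile normalization (-0.28, limma adjusted p 0.0503), scaled to nuclear protein-coding genes (-0.20, limma adjusted p 0.216), and without XX EpiLC library 3 (-0.34, limma adjusted p 0.0517).

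Pcgf6 (chromosome 19, 47033617 to 47050906) had 17.8, 21.8 and 17 scaled TPM in XX mESC and 15.3, 14.1 and 15.2 in XX EpiLC, without overlap. The XY values were 21.5, 16.5 and 20 and then 19.6, 20.3 and 20.6, and the Tet3-/- values were 14.3 to 18.9 and then 14.1 to 16.2, both with overlap. The XX value of -0.32 ± 0.12 (SE; limma adjusted p 0.036) was not stable. It lost its call under 7 of the settings for scaling, filter, fit and transcripts, with the replicate block among them, and without XX mESC library 2 (-0.22, limma adjusted p 0.15) or any XX EpiLC library. The XY value was 0.07 ± 0.12 and the Tet3-/- value -0.12 ± 0.11, neither called (limma adjusted p 0.679 and 0.399).

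Cbx7 (chromosome 15, 79915807 to 79971119) fell in XY and in Tet3-/- cells. In XY cells it had 58.2, 42.9 and 64.9 scaled TPM in mESC and 28.2, 28.7 and 28.3 in EpiLC. Tet3-/- cells had 35.2, 37.7, 36.3 and 35.3, then 29.7, 24.6 and 27.5. In XX cells it had 31, 33.4 and 32.7, then 34.4, 42.4 and 39.4, where every EpiLC library lies above every mESC library. The change was -0.92 ± 0.12 in XY (SE; limma adjusted p 1.11e-05), -0.40 ± 0.12 in Tet3-/- (limma adjusted p 0.00861) and 0.25 ± 0.12 in XX cells (limma adjusted p 0.108). Quantile normalization made the XX rise a call (0.36, limma adjusted p 0.0355). The other calls were lost on the deposited scale, with -0.26 in XY (limma adjusted p 0.508) and -0.56 in Tet3-/- cells (limma adjusted p 0.159).

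**Figure D2:**
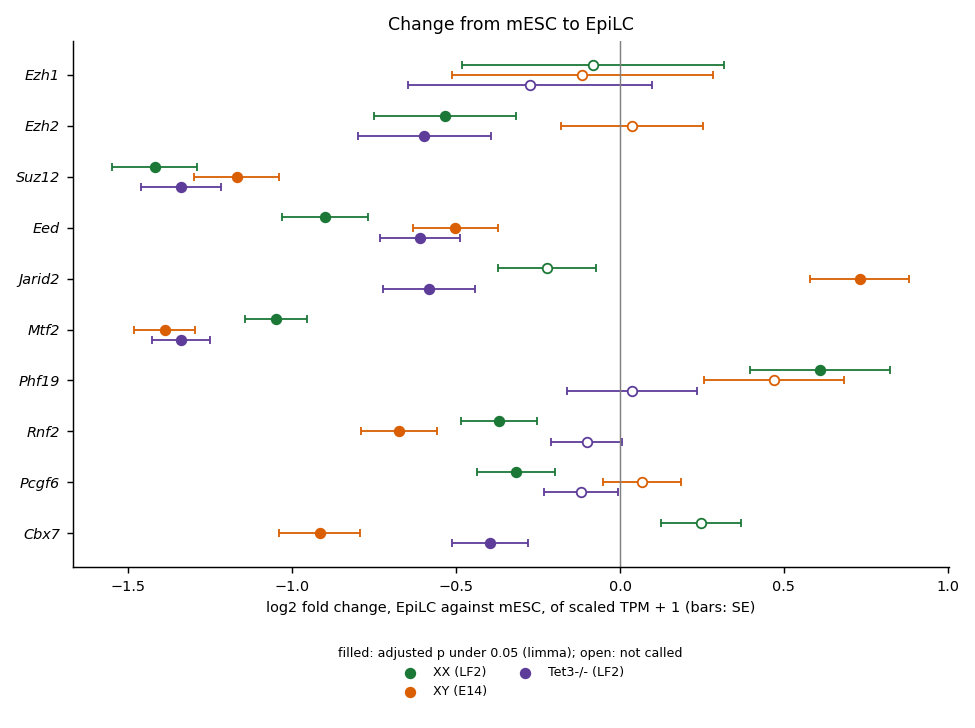
Log2 fold change from mESC to EpiLC (horizontal axis, points with SE bars) of the 10 members in XX, XY and Tet3-/- cells, with filled points for limma adjusted p under 0.05. Suz12, Eed and Mtf2 lie left of 0 in all 3 genotypes, while Jarid2 lies right of 0 in XY cells only and Cbx7 right of 0 in XX cells only, and the Cbx7 value in XX cells was not called.

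The difference between transitions was tested as an interaction. Between XX and XY cells it was called for 2 of the 10 members, beside 23.7% of all tested genes. Jarid2 differed by -0.95 ± 0.21 (SE, XX minus XY; limma adjusted p 0.0036) and Cbx7 by 1.16 ± 0.17 (limma adjusted p 0.000156). Neither was called on the deposited scale, where Jarid2 had -1.40 (limma adjusted p 0.0608) and Cbx7 0.71 (limma adjusted p 0.308). Over protein-coding transcripts alone 4 members were called, since Eed (-1.14, limma adjusted p 0.0209) and Mtf2 (0.64, limma adjusted p 0.000788) joined them. Their values over all transcripts were -0.40 ± 0.19 (limma adjusted p 0.136) and 0.34 ± 0.13 (limma adjusted p 0.076). Quantile normalization also made a call of Pcgf6 (-0.42, limma adjusted p 0.0426).

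Between Tet3-/- and XX cells no member's transition was called different by limma, beside 0.661% of all tested genes, and 2 members had an unadjusted p under 0.05. These were Cbx7 (-0.64 ± 0.17, Tet3-/- minus XX; limma adjusted p 0.105) and Mtf2 (-0.29 ± 0.13, limma adjusted p 0.414). The unequal calls of Jarid2, Rnf2 and Pcgf6 in these genotypes are therefore not shown to differ. The largest size among the other 8 members was Phf19 at -0.57 ± 0.29 (limma adjusted p 0.511).

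In mESC the Tet3-/- libraries had less Eed and Mtf2 RNA than the XX libraries, and no other member was called. That is 2 of 10 members, both lower, beside 3.18% of all tested genes in either direction and 1.41% lower. The median over the members was -0.22 and over all tested genes -0.01. It was 0.04 on the deposited scale, where no member was called. The 4 Tet3-/- libraries had 29.1 to 36.2 scaled TPM of Eed, all under the XX range of 53.3 to 62.2, a difference of -0.74 ± 0.12 (SE; limma adjusted p 0.00321). They had 104 to 109 of Mtf2, all under the XX range of 128 to 150, a difference of -0.38 ± 0.09 (limma adjusted p 0.0249). The Eed call held with any library left out. It was lost on the deposited scale (-0.46, limma adjusted p 0.716), scaled to nuclear protein-coding genes (-0.68, limma adjusted p 0.12) and in a fit of only these groups (-0.74, limma adjusted p 0.0807). The Mtf2 call was lost without XX library 1 or 3 or Tet3-/- library 1, 2 or 4, down to -0.32 (limma adjusted p 0.14). It was lost under the 3 other scalings too, with -0.10 on the deposited scale (limma adjusted p 0.901), and with no filter or in a fit of only these groups.

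This comparison shares the XX mESC libraries with the XX transition, and the libraries that stood apart weighed on it. Without XX mESC library 2 alone 3 members were called, Phf19 being added (-0.68, limma adjusted p 0.00675). With Tet3-/- EpiLC library 3, which is not in this comparison but enters the shared estimate of the spread, left out as well, 5 members were called, all lower. In both settings more of the other Polycomb genes were called too, by the counts in the last section. The share over all tested genes is not given for these settings, so a rise particular to the members is not shown. The calls of Ezh1 (-0.87, limma adjusted p 0.0115) and Suz12 (-0.38, limma adjusted p 0.0169) were made with both left out and not without XX mESC library 2 alone (limma adjusted p 0.131 and 0.0546), and Phf19 had -0.68 (limma adjusted p 0.00504). With all libraries Ezh1, Suz12 and Phf19 had -0.43 ± 0.37, -0.26 ± 0.12 and -0.35 ± 0.20 (limma adjusted p 0.689, 0.319 and 0.458).

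In EpiLC the Tet3-/- libraries had less Mtf2, Phf19 and Cbx7 RNA than XX. That is 3 of 10 members, all lower, beside 5.46% of all tested genes in either direction and 2.97% lower, with a median of -0.32 over the members and 0.01 over all tested genes. Mtf2 had 39.4 to 43.5 against 64.6 to 68.6 scaled TPM, a difference of -0.67 ± 0.09 (SE; limma adjusted p 0.000478) that was lost only on the deposited scale (-0.78, limma adjusted p 0.278). Phf19 had 0.981 to 1.14 against 2.55 to 3.34, a difference of -0.92 ± 0.21 (limma adjusted p 0.0175). It was lost without XX EpiLC library 1 or 2 (limma adjusted p 0.0726 and 0.0662) and with a pseudocount of 0.1 (-1.37, limma adjusted p 0.0658). Cbx7 had 24.6 to 29.7 against 34.4 to 42.4, a difference of -0.49 ± 0.12 (limma adjusted p 0.0286). Its call was lost without XX EpiLC library 2 or 3 or Tet3-/- EpiLC library 3 or 4, down to -0.42 (limma adjusted p 0.15). The deposited scale (-0.60, limma adjusted p 0.603), scaling to nuclear protein-coding genes, no filter and a fit of only these groups ended it too. So did the replicate block and leaving out the 2 libraries that stood apart.

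Without XX EpiLC library 2, Mtf2 was the only member called. Eed, at 18.8 to 24.3 against 24.7 to 33.4 scaled TPM, did not overlap between the EpiLC groups and narrowly missed the threshold (-0.45 ± 0.13, limma adjusted p 0.0576). With quantile normalization it passed (-0.50, limma adjusted p 0.0466). Beside these values, naive markers summed to 35.7 to 49.4 in Tet3-/- EpiLC and 86 to 90.3 in XX EpiLC, and their part in the differences was not tested. Whether the Mtf2 difference is larger in EpiLC than in mESC is the test of the transitions given above, which was not passed.

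Between XX and XY cells the members differed in each state. In mESC 6 of the 10 were called, 5 higher in XX and 1 lower, beside 31.3% of all tested genes, with a median of 0.29 over the members and 0.00 over all tested genes. In EpiLC 6 were called, 4 higher and 2 lower, beside 33.8% of all tested genes, with a median of 0.32. A fit of only the EpiLC groups called 9, adding Ezh1 (0.35, limma adjusted p 0.00942) and Suz12 (0.29, limma adjusted p 0.00349) as higher and Ezh2 (-0.37, limma adjusted p 0.00587) as lower in XX. More of the other Polycomb genes were called in that fit too, and its share over all tested genes is not given. On the deposited scale Ezh2 was called too (-1.09, limma adjusted p 0.0448). On the deposited scale, where the median gene was lower in XX by the values above, the splits were 1 higher and 1 lower in mESC and 1 higher and 3 lower in EpiLC, and the medians were 0.02 and -0.40. Scaled to the total of nuclear protein-coding genes they were 1 and 1 in mESC and 2 and 1 in EpiLC.

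In mESC the PRC2 genes Suz12 (0.53 ± 0.13, SE; limma adjusted p 0.00489), Eed (0.51 ± 0.13, limma adjusted p 0.00719), Jarid2 (0.48 ± 0.15, limma adjusted p 0.0219), Mtf2 (0.26 ± 0.09, limma adjusted p 0.0445) and Phf19 (0.86 ± 0.21, limma adjusted p 0.00573) were higher in XX. The libraries of the 2 genotypes did not overlap for any of these genes. As the genes were named for being called in this same contrast, this adds no support to the calls. The share of all tested genes without overlap was not counted. Cbx7 was lower in XX, with 31 to 33.4 against 42.9 to 64.9 scaled TPM (-0.74 ± 0.12, limma adjusted p 0.00027), and this call held under every alternative that was run. In a fit of only these groups 2 members were called, and Suz12 (limma adjusted p 0.0512), Jarid2 (0.114), Mtf2 (0.191) and Phf19 (0.122) lost theirs. Suz12, Eed, Jarid2 and Mtf2 also lost their calls on the deposited scale and scaled to nuclear protein-coding genes, and Mtf2 turned to -0.02 on the former (limma adjusted p 0.983). The Jarid2 call was lost without XX mESC library 1 or 3 or XY mESC library 1 or 2, down to 0.37 (limma adjusted p 0.0908). The Mtf2 call was lost without XX mESC library 1 or 3 or XY mESC library 1 or 3, down to 0.20 (limma adjusted p 0.17). With the 2 libraries that stood apart left out, Ezh1 was also called higher in XX mESC (0.76, limma adjusted p 0.0111).

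In EpiLC Mtf2 was higher in XX, with 64.6 to 68.6 against 38.6 to 46.5 scaled TPM, a difference of 0.60 ± 0.09 (SE; limma adjusted p 0.00012) that turned to -0.13 on the deposited scale (limma adjusted p 0.724). Phf19 was higher, with 2.55 to 3.34 against 0.776 to 1.08, a difference of 1.00 ± 0.21 (limma adjusted p 0.00168) that held under every alternative that was run. Rnf2 (0.35 ± 0.12, limma adjusted p 0.0285) and Cbx7 (0.43 ± 0.12, limma adjusted p 0.0134) were higher in XX and turned to -0.36 and -0.29 on the deposited scale. Jarid2 (-0.47 ± 0.15, limma adjusted p 0.0226) and Pcgf6 (-0.41 ± 0.12, limma adjusted p 0.0131) were lower in XX and also lower on the deposited scale.

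Several of the EpiLC calls were lost when a single library was left out. Those of Cbx7 and Pcgf6 were lost without XX EpiLC library 2, where 3 members were called. That of Rnf2 was lost without XX EpiLC library 1 or 2 or XY EpiLC library 2 or 3, and that of Jarid2 without XX EpiLC library 1 or XY EpiLC library 2 or 3. With any library left out the sizes kept their sign. They were 0.361 to 0.51 for Cbx7, -0.434 to -0.381 for Pcgf6, 0.286 to 0.442 for Rnf2 and -0.55 to -0.401 for Jarid2. With no filter on low values Rnf2, Jarid2 and Pcgf6 were not called, and scaled to nuclear protein-coding genes Rnf2, Cbx7 and Jarid2 were not. Cbx7 and Jarid2 had opposite orders of the genotypes in mESC and in EpiLC, which are the differences between transitions given above. Beside these values the formative markers summed to 188 to 193 in XY EpiLC and 44.1 to 46 in XX EpiLC, and their part was not tested.

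**Figure D3:**
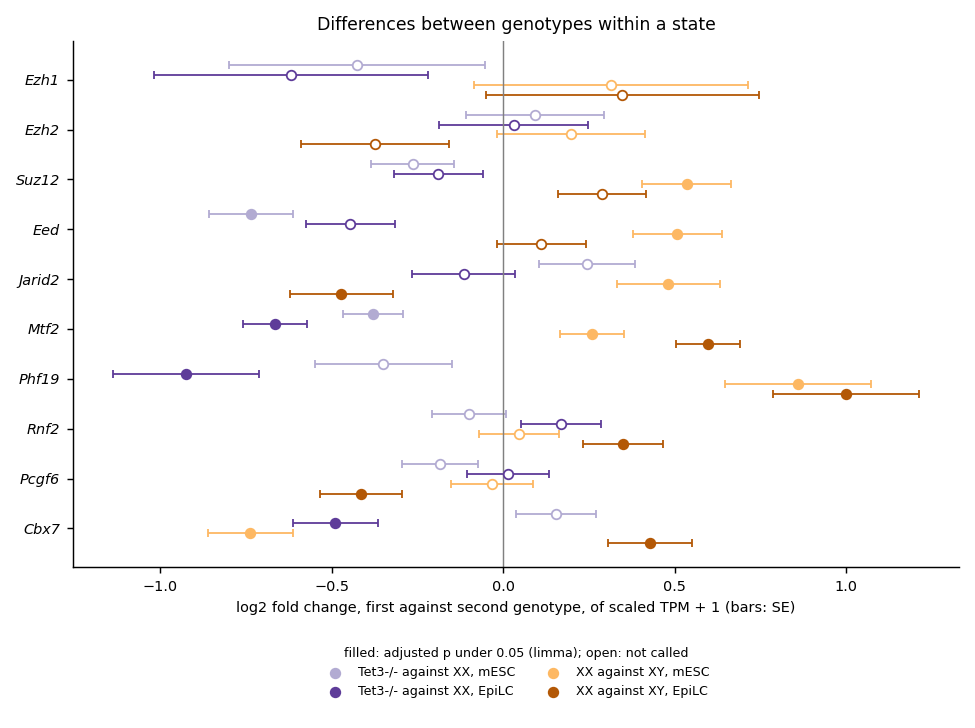
Log2 fold change between genotypes within a state (horizontal axis, points with SE bars) of the 10 members, for Tet3-/- against XX and for XX against XY, with filled points for limma adjusted p under 0.05. All 5 filled points of Tet3-/- against XX lie left of 0, and Jarid2 and Cbx7 change sides between mESC and EpiLC in XX against XY.

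A subunit can also gain or lose ground against its paralogues, and these shares of TPM do not depend on the scaling of a library. The 15 tests of 5 shares were exact permutation tests within strata, 2-sided and adjusted by the Benjamini-Hochberg method. Phf19 took 1.19% ± 0.685 (SD, n = 3) of the summed Mtf2, Phf19 and Phf1 TPM in XX mESC and 4.11% ± 0.501 (SD, n = 3) in XX EpiLC. In XY cells it took 0.375% ± 0.216 and then 2.11% ± 0.506, and in Tet3-/- cells 0.943% ± 0.173 and then 2.42% ± 0.226. The rise of 2.04 percentage points had the same sign in 3 of 3 genotypes and the smallest p that the permutations can give (exact p 7.14e-05, adjusted 0.00107). In Tet3-/- cells Phf19 itself went from a mean of 1.03 to 1.08 scaled TPM with no call, while Mtf2, the bulk of the sum, went from 107 to 41.6. Mtf2 also fell in the other genotypes. Mtf2 remained the main PCL transcript, with a mean of 92.7% to 97.5% of the family in the groups.

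Pcgf6 was the largest PCGF transcript in each group. Its share of the 6 PCGF genes was 37.3% ± 1.02 in XX mESC, 41.4% ± 3.34 in XY mESC, 32.3% ± 0.813 in XX EpiLC and 44.2% ± 0.503 in XY EpiLC (SD, n = 3 each). It was lower in XX than in XY by 8.07 percentage points (exact permutation p 0.005, adjusted 0.0375), in both states. The call was lost without XX mESC library 1 (adjusted 0.075) or 3 (0.0563) or XY mESC library 1 (0.05). In Tet3-/- cells the share was 33% ± 2.94 (SD, n = 4) in mESC and 29.6% ± 1.71 (SD, n = 3) in EpiLC, 3.45 points under XX on average. That difference lay at the threshold and did not pass it (exact permutation p 0.01, adjusted 0.05), and without Tet3-/- mESC library 2 it passed (-4.13 points, adjusted 0.025).

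The rest of the PCGF family shifted in description. Bmi1 went from 15.4% to 3.91% of the family in XX cells, from 14.5% to 9.11% in XY and from 16.6% to 6.26% in Tet3-/- cells. Pcgf5 went from 5.84% to 13.6%, from 4.2% to 6.27% and from 6.71% to 19.9%, and Pcgf3 from 11.9% to 26.5%, from 12.6% to 17.3% and from 13.6% to 24.5%. Bmi1 belongs to canonical PRC1, and PCGF3 and PCGF5 to variant forms. These paralogue shares were not tested.

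Rnf2 held 91.4% to 93.4% of the Rnf2 and Ring1 TPM in 5 groups and 82.8% ± 2.01 (SD, n = 3) in XY EpiLC. XY EpiLC thus had the lowest Rnf2 share. Averaged over the genotypes the share did not pass the test between states (-3.6 points, exact permutation adjusted p 0.118). Over protein-coding transcripts alone it passed (-3.21 points, adjusted p 0.00643).

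**Figure D4:**
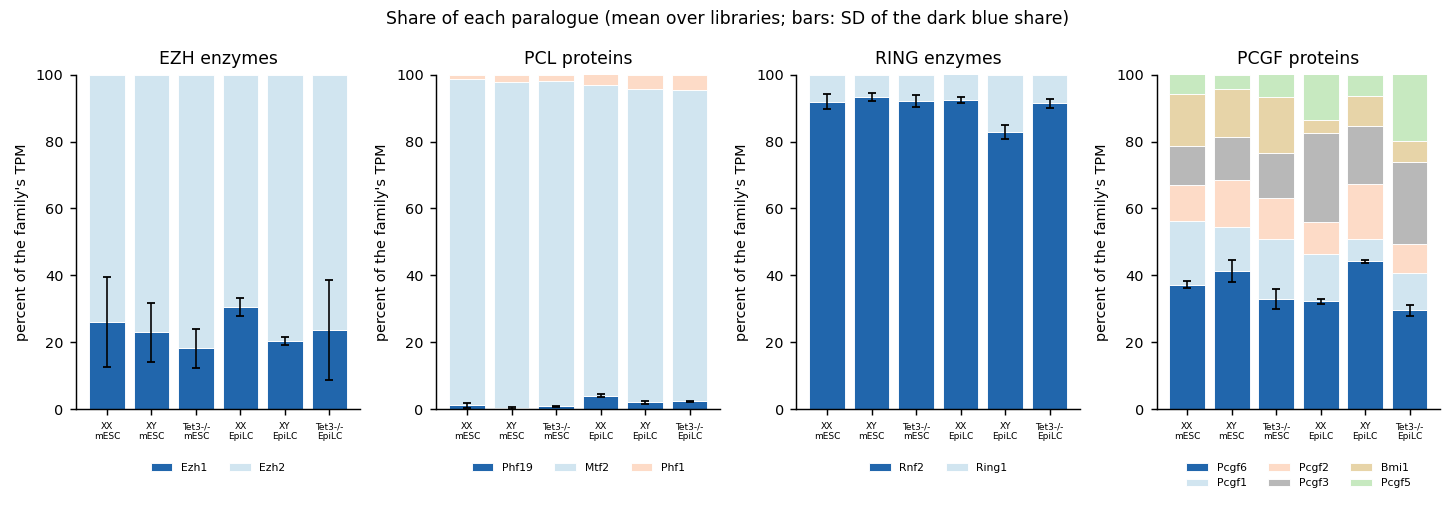
Mean percent of each paralogue in the summed TPM of its family (vertical axis, 0 to 100) in the 6 groups, with SD bars on the member's share in dark blue. Phf19 is a thin band that is wider in EpiLC, Pcgf6 is widest in XY EpiLC, and the Rnf2 band is lowest in XY EpiLC at 82.8%.

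The transcripts behind the gene sums are model estimates of the quantification and are given as a description. Of the Mtf2 TPM, 51.4% ± 3.29 in XX, 54.4% ± 2.91 in XY (SD, n = 3 each) and 52.2% ± 1.19 in Tet3-/- mESC (SD, n = 4) fell on transcripts annotated as protein-coding. In EpiLC this was 38.7% ± 3.19, 33.3% ± 4 and 36.3% ± 1.13 (SD, n = 3 each). The lowest mESC library had 49% and the highest EpiLC library 41.8%, so the states did not overlap. The share of retained-intron transcripts of Mtf2 was 8.43% to 10.2% in the mESC groups and 17.5% to 22.6% in the EpiLC groups, and the coding transcript Mtf2-201 carried nearly all of the coding TPM.

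Single coding transcripts of Cbx7 and Jarid2 also had lower mean shares in EpiLC, with an overlap of the XY libraries for Jarid2. Cbx7-205 held 43.1%, 39.2% and 42% of the Cbx7 TPM in XX, XY and Tet3-/- mESC and 25%, 20.8% and 23.2% in EpiLC. Jarid2-208 held 70.4%, 60.8% and 70% in mESC and 56.3%, 52.7% and 61.7% in EpiLC. Suz12 and Rnf2 were mostly coding. Eed had from 36.3% to 54.2% and Ezh2 from 53.5% to 57.2% of their TPM on coding transcripts as group means, and most of the rest on retained-intron transcripts. In total RNA libraries such transcripts can include unspliced RNA.

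**Figure D5:**
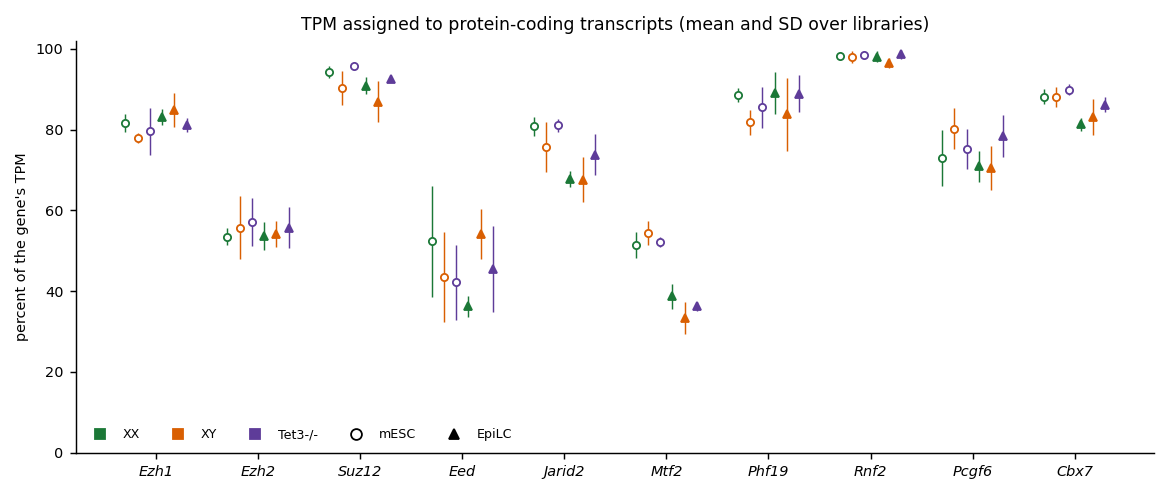
Percent of each member's TPM on transcripts annotated as protein-coding (vertical axis, mean and SD over libraries) by group, with open circles for mESC and filled triangles for EpiLC. Mtf2 shows the clearest gap between states, from 51.4% to 54.4% in mESC to 33.3% to 38.7% in EpiLC, and Eed has wide bars.

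Of the other Polycomb genes, 52 were listed and 51 tested, in 4 lists of PRC2, canonical PRC1, variant PRC1 and opposing enzymes. In the XX transition 27 were called, 11 higher and 16 lower, with a median of -0.11. In the XY transition 26 were called, 15 higher and 11 lower, with a median of 0.04, and in the Tet3-/- transition 25, with 9 higher, 16 lower and a median of -0.08. These counts are about the share called over all tested genes. On the deposited scale the splits were 5 and 7 in XX, 20 and 1 in XY, and 3 and 13 in Tet3-/- cells. The 9 tested genes that oppose Polycomb, which remove the methyl or the ubiquitin mark or assist in it, had 4 higher and 0 lower in XX, 6 and 0 in XY, and 4 and 0 in Tet3-/- cells. Over all tested genes 24.5% were called higher in XX, 26.4% in XY and 25.2% in Tet3-/- cells. Of the 9 genes 1, 8 and 1 were higher on the deposited scale, and 0 were lower.

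By the rule for naming, the outermost called genes of each transition were these. Phc1, a canonical PRC1 subunit, rose in XX (0.92 ± 0.22, SE; limma adjusted p 0.00263), XY (1.22 ± 0.22, limma adjusted p 0.000244) and Tet3-/- cells (1.06 ± 0.21, limma adjusted p 0.000459). Scml2, a PRC1 partner, fell in XX (-2.61 ± 0.42, limma adjusted p 7.33e-05) and Tet3-/- cells (-2.25 ± 0.39, limma adjusted p 0.000138). Kdm2b, which brings variant PRC1 to CpG islands, fell in XX cells (-1.85 ± 0.21, limma adjusted p 1.79e-06) and Pcgf3 rose there (0.93 ± 0.11, limma adjusted p 4.87e-06). In XY cells Epop fell by 1.53 and Fbrsl1 fell by 1.13, and Auts2 rose by 1.96 (limma adjusted p 0.00283, 0.00031 and 3.58e-08). In Tet3-/- cells AU022751, the mouse Ezhip gene, an inhibitor of PRC2, fell by 1.69 and Pcgf5 rose by 1.33 (limma adjusted p 0.000421 and 6.97e-07). On the deposited scale Epop, Fbrsl1 and, in Tet3-/- cells, Phc1 kept their sign without a call.

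Between the transitions of XX and XY cells 14 of the 51 were called, 2 higher and 12 lower, beside 23.7% of all tested genes. Among them were Kdm2b (-1.67 ± 0.29, SE; limma adjusted p 0.000642), Scml2 (-2.65 ± 0.59, limma adjusted p 0.00385) and Pcgf3 (0.55 ± 0.16, limma adjusted p 0.0203). Pcgf3 had 0.12 and no call on the deposited scale. Between the transitions of Tet3-/- and XX cells limma called 0, beside 0.661% of all tested genes. Tet3-/- against XX called 0 of the 51 in mESC, beside 3.18% of all tested genes, and 1 in EpiLC, beside 5.46%. The latter was Pcgf5 (0.57 ± 0.15, limma adjusted p 0.0356), a call lost on the deposited scale (limma adjusted p 0.498).

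Between XX and XY 16 were called in mESC, 7 higher in XX and 9 lower, beside 31.3% of all tested genes. In EpiLC 21 were called, 4 higher and 17 lower, beside 33.8%. These splits were 2 and 3, and 0 and 27, on the deposited scale. In mESC Scml2 (3.54 ± 0.42, SE; limma adjusted p 1.06e-05) and Kdm6a, a demethylase of the PRC2 mark (0.78 ± 0.10, limma adjusted p 1.76e-05), were the highest in XX, and Rbbp7 (-0.90 ± 0.15, limma adjusted p 0.000317) and Phc2 (-0.90 ± 0.20, limma adjusted p 0.00242) the lowest. In EpiLC Auts2 (-1.85 ± 0.16, limma adjusted p 2.65e-07) and Cbx2 (-1.42 ± 0.16, limma adjusted p 3.79e-06) were the lowest in XX, and Pcgf5 (0.92 ± 0.15, limma adjusted p 0.000184) and Pcgf1 (0.86 ± 0.22, limma adjusted p 0.00668) the highest. On the deposited scale Kdm6a (0.51), Pcgf5 (0.34) and Pcgf1 (0.27) kept their sign without a call (limma adjusted p 0.28, 0.19 and 0.371).

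Lists of genes known to be held silent by these complexes were counted beside the members. Of 19 developmental PRC2 targets only 6 passed the filter, and 3 of these 6 were called in each transition, which is near the background of 50.4% to 52.4%. Of 12 germline genes of the PCGF6 form, 6 fell and 1 rose in XX cells, 4 fell and 3 rose in XY cells, and 6 fell and 2 rose in Tet3-/- cells. The 7, 7 and 8 called are near that background too. Of the 14972 tested genes 3874 were called lower and 3667 higher in XX cells, 3742 and 3947 in XY, and 4069 and 3774 in Tet3-/- cells. In mESC 10 of the 12 were higher in XX than in XY and 0 lower, with a median of 1.43, beside 17.7% of all tested genes called higher there. Pcgf6 itself was not called in mESC (-0.03 ± 0.12, limma adjusted p 0.876). In EpiLC, where Pcgf6 was called lower in XX as given above, 5 of the 12 were higher in XX and 0 lower, with a median of 0.53. Of the 14972 tested genes 2581 were called higher there. Counts of these lists under the other scalings are not given.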

How the data were processed

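Total RNA depleted of ribosomal RNA was sequenced from stranded libraries, per the labels' protocols. The authors deposited TPM (transcript abundance per 1000000) for 140948 transcripts and 19 libraries. FastQC 0.11.7, Trimmomatic 0.35, Salmon 1.1.0 and the build GRCm38 are named, per the submitters' processing notes, without their parameters or the annotation. TPM keeps no sequencing depth, so no counting interval is given and the spread between libraries is the only error. Salmon shares reads between transcripts by a model, and reads shared by paralogues cannot be checked in this table.

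Here the TPM of a gene is the sum over its transcripts in GENCODE M21 (GRCm38). Identifiers of 139357 transcripts were found there in full, those of 495 once the version number was dropped, and the other 1096, with 0.045% to 0.215% of TPM, were left out. A gene was tested if 3 or more libraries had a TPM of 1 or above (14972 genes), and TPM was rescaled by median-of-ratios factors over 13815 genes above 0 in every library. limma 3.58.1 in R 4.3.3 (lmFit, contrasts.fit, eBayes with a trend) was fitted to log2(scaled TPM + 1) of all libraries in 6 groups, for 9 contrasts, with Benjamini-Hochberg adjustment within each. Shares within paralogue families were tested in Python 3.11.15 with NumPy 2.4.6. Results for 1 of the 5 shares are not reported here, and its tests remain in the adjustment. The fit was tested on simulated data.

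All 10 members are named. Of 52 other Polycomb genes those named are paralogues in a share and, per contrast, the called genes with the 2 highest and 2 lowest log2 fold changes at a mean of at least 5 scaled TPM in the higher group. Genes of the marker lists and Tet3 serve as label checks. The members and lists were chosen with earlier results of these data known. Alternatives were the deposited TPM, quantile normalization, another pseudocount (0.1), no filter, a minimum of 5 in place of 1, only the groups compared, no trend, a replicate block, protein-coding transcripts only and each library left out. TPM scaled to nuclear protein-coding genes, and leaving out a pair of libraries, were added after the data were seen.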

Additional observations from a re-analysis of the deposited data

Results flagged for a closer look

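Between genotypes, 2 members had a transition that differed by the test of the difference itself. Jarid2 had a log2 fold change from mESC to EpiLC that was lower in XX than in XY cells by -0.95 (limma adjusted p 0.0036), with a value of -0.22 in XX and 0.73 in XY cells. Cbx7 had one that was higher in XX by 1.16 (limma adjusted p 0.000156), with 0.25 in XX and -0.92 in XY cells. Sex and cell line cannot be told apart in this pair. Tet3-/- mESC is the only group with more than 3 libraries, and there none of the 15 quantities examined (the level of each member and 5 paralogue shares) had a library far from the others.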

How the results depend on the processing

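Of 90 values (10 members in 9 contrasts) 38 were called. Of these 8 kept their call and direction under all alternatives, 18 under all but the deposited TPM, and 24 with any library left out. On the deposited TPM 5 turned: Eed in the XY transition (0.155), Mtf2 for XX against XY in mESC (-0.0169) and EpiLC (-0.129), and Rnf2 (-0.362) and Cbx7 (-0.291) for XX against XY in EpiLC. The cause was not tested.

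On the deposited TPM the members called were 3 in the XX, 3 in the XY and 2 in the Tet3-/- transition, 0 in mESC and 1 in EpiLC for Tet3-/- against XX, 2 for XX against XY in mESC and 0 for the difference of the XX and XY transitions. The other Polycomb genes called were 12 in the XX and 16 in the Tet3-/- transition, 0 for Tet3-/- against XX in EpiLC, 5 for XX against XY in mESC and 9 for the XX and XY difference. Scaled to nuclear protein-coding genes the members called were 4 in the XX transition, 0 for Tet3-/- against XX in mESC, and 2 and 3 for XX against XY, and the other Polycomb genes 0 for Tet3-/- against XX in EpiLC, 10 for XX against XY in mESC and 8 for the XX and XY difference. With no filter the members called were 4 in the XX transition, 1 for Tet3-/- against XX in mESC and 3 for XX against XY in EpiLC, and the other genes 0 for Tet3-/- against XX in EpiLC and 8 for the XX and XY difference. With only the groups compared there were 4 members in the XX transition, 0 for Tet3-/- against XX and 2 for XX against XY in mESC, and 0, 7 and 33 other genes for Tet3-/- against XX in EpiLC and XX against XY in mESC and EpiLC. Quantile normalization gave 1 member for Tet3-/- against XX in mESC and 4 other genes in EpiLC, where the stricter filter gave 2. Protein-coding transcripts alone gave 4 members in the XX and XY difference and 2 other genes for Tet3-/- against XX in EpiLC, a Phf19 share 2.64 points higher in XX than in XY, and an Rnf2 share of -3.21 points between states. The cause of these changes was not tested. Shares of all tested genes called under the alternatives, or with libraries left out, are not given, so these counts have no background beside them.

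Without XX mESC library 2 and Tet3-/- EpiLC library 3 there were 4 members in the XX transition and 5 for Tet3-/- against XX in mESC. The other genes were then 11 for Tet3-/- against XX and 26 for XX against XY in mESC, and 3 and 22 for the differences of the Tet3-/- and XY transitions from XX. The Ezh1 share was then 10.4 points higher in XX than in XY, and the Phf19 share differed by -1.1 (Tet3-/- minus XX) and 1.58 points (XX minus XY). With 1 library left out the members called ran from 4 to 7 in the XX transition, 1 to 3 for Tet3-/- against XX in each state and 3 to 6 for XX against XY in EpiLC. The other genes ran from 0 to 4 for Tet3-/- against XX in each state (4 without XX mESC library 2, and without Tet3-/- EpiLC library 4) and from 10 to 21 for XX against XY in mESC (10 without XX library 1 or XY library 1 or 3). The Pcgf6 share ran from -8.81 to -7.16 points (XX minus XY) and from -4.13 to -2.96 (Tet3-/- minus XX), the Ezh1 share from 4.59 to 10.4 (XX minus XY), and the Phf19 share from 1.24 to 1.58 (XX minus XY) and from -1.15 to -0.806 (Tet3-/- minus XX).

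With the replicate number as a block every count stayed within 1.5 times its value, and 3 calls were lost: Cbx7 for Tet3-/- against XX in EpiLC (-0.493, limma adjusted p 0.0775), Mtf2 for XX against XY in mESC (0.26, limma adjusted p 0.0532) and Pcgf6 in the XX transition (-0.317, limma adjusted p 0.0542). Deviations of mESC and EpiLC libraries of the same number correlated at -0.0522 to 0.0613 in XX, -0.0292 to 0.274 in XY and -0.0942 to 0.223 in Tet3-/- cells. In no genotype were all of them above 0.1, and not every library correlated best with its own number, so the main fit took the numbers as names only. Libraries 1 and 3 of each genotype did correlate best with their own number (0.0417 and 0.0613 in XX, 0.206 and 0.274 in XY, 0.216 and 0.223 in Tet3-/- cells). The check therefore does not exclude a pairing.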
